A study of Homo sapiens with 18 samples.

Results

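The 10 genes described here are regulators of the BCL2 family: BCL2, BCL2L1, MCL1, BCL2A1, BAX, BAK1, BCL2L11, BBC3, PMAIP1 and BID. They were chosen by gene symbol, and each had 1 row among the 28395 genes of the RNA-seq tables. Of 85549 merged ATAC-seq regions, 43 lay within 5 kb of these genes. RNA-seq measured transcripts and ATAC-seq, which tags DNA that a transposase can reach, measured open chromatin in 3 derivatives of K562, a human chronic myeloid leukaemia line with erythroid features. The control line V-K562 held an empty vector, B-K562 expressed wild-type BASP1 (wtBASP1), a transcriptional corepressor, and G-K562 expressed BASP1-G2A, a mutant that cannot be myristoylated. All 3 lines carried the drug-selected vector and the labels name no further treatment. Each line was 1 stably transfected pool rather than a clone, sampled in 3 independent experiments per assay, so the error covers the spread between samples of a pool and not between transfections. The comparisons ask which transcripts and regions differ when BASP1 is present, and which differ between the wild-type and the non-myristoylated protein.

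BCL2 family proteins decide whether the outer mitochondrial membrane stays intact. Anti-apoptotic members hold the effectors BAX and BAK1 inactive, and BH3-only members either block the anti-apoptotic proteins or activate the effectors directly. Once active, the effectors form pores that release cytochrome c, which starts the caspase cascade. K562 cells are known for their dependence on BCL-xL, the anti-apoptotic product of BCL2L1.

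BASP1 itself had values of 5 to 7 in V-K562, against 6189 to 6849 with wtBASP1 and 8124 to 12538 with BASP1-G2A. These values are normalised read counts, that is, read counts divided by a size factor for each library and rounded. All 9 K562 markers checked were detected in every line, but their level moved with the groups. Summed over these markers, the V-K562 libraries ran from 127159 to 142372, the B-K562 libraries from 210164 to 213807 and the G-K562 libraries from 69424 to 75161. All 9 markers rose in B-K562, while 8 fell and 1 rose in G-K562. The 13 markers of other cell types summed to 4568 to 4880, 3789 to 3986 and 6118 to 6695, with MS4A1 at 0 in all 3 lines. The higher sum in G-K562 came with LYZ, which rose by 1.55 on the log2 scale, while CD3D, EPCAM and COL1A1 fell. The part of these shifts in the results was not tested. Total values were 32074895 to 33229588 per RNA-seq library, and 47111 to 55570 peaks were called per ATAC-seq library. In bulk RNA, fewer cells of a type and less RNA per cell cannot be told apart.

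In B-K562 cells, transcripts of 2 BH3-only genes fell more than 2-fold, BBC3 and PMAIP1. Both effector genes, BAX and BAK1, rose by less than 2-fold. In G-K562 cells the anti-apoptotic genes BCL2, BCL2L1 and MCL1 rose, BCL2 by 5.36-fold from low counts. The effector BAX (1.86-fold) and the BH3-only genes BCL2L11 (1.61-fold), PMAIP1 (1.52-fold) and BBC3 (1.22-fold) rose there too. BAK1 and BID moved in opposite directions in the 2 lines, up in B-K562 and down in G-K562. A gene was called higher or lower at an adjusted p of at most 0.05 in limma.

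Of the 9 members that could be tested between B-K562 and V-K562, 4 rose and 3 fell. Over all 14958 genes tested, 75.8 percent were called, 38.6 percent higher and 37.2 percent lower. The share of members called is therefore near that of genes in general, and the description below rests on sizes and directions of single genes. At least 2-fold falls were seen in 2 members, where 14.1 percent of all genes fell that far, and no member rose as far, where 6.46 percent of genes did. Between G-K562 and V-K562, 8 members were called higher and 2 lower, against 33.5 percent and 33.3 percent of 15271 genes, 66.9 percent in all. Among the 8 is BCL2A1, which passed the filter on low values through the G-K562 libraries, and with a minimum of 10 in every library 7 were higher and 2 lower. Besides BCL2A1, BCL2 rose at least 2-fold, as 8.81 percent of genes did. The V-K562 libraries serve as controls in both comparisons, which are therefore not independent. Counts given below for V-K562 and B-K562 are those of their joint table, and those for G-K562 come from the table it shares with V-K562, in which V-K562 is scaled slightly differently. Values per length and ratios use the scale of the second table for all 3 lines.

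**Figure D1:**
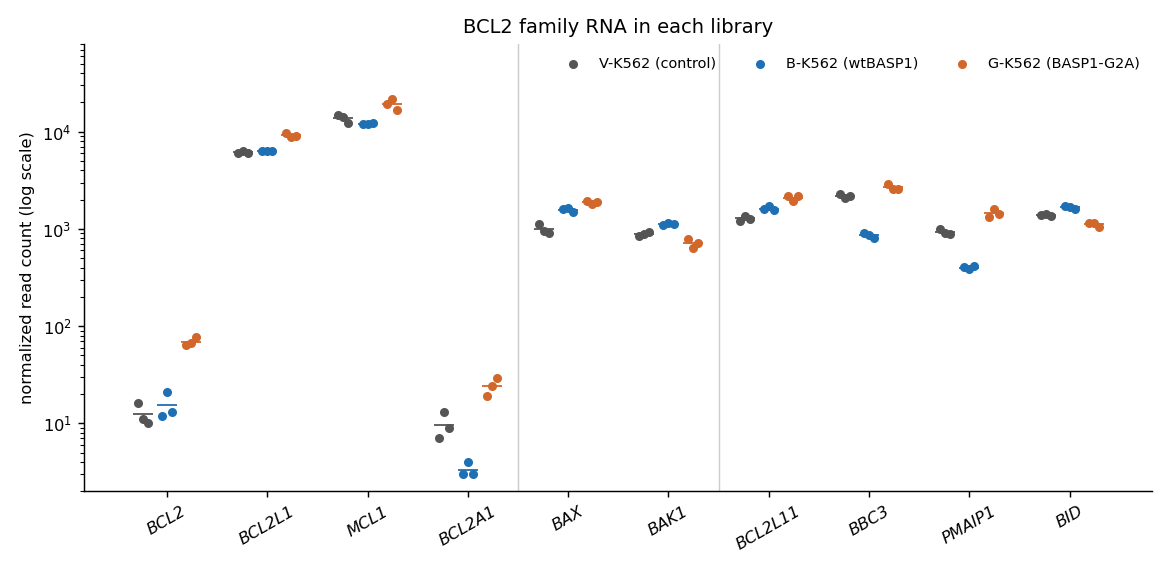
Normalised read count on a log axis for the 10 genes in each RNA-seq library, 3 points per line with the mean as a bar, and grey rules between anti-apoptotic, effector and BH3-only genes. BBC3 and PMAIP1 sit lowest in B-K562, BCL2 sits highest in G-K562, and MCL1 has the highest values in every library.

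The anti-apoptotic genes differed widely in level. Per kilobase of exon, MCL1 was the most abundant member in V-K562 at 3453 ± 335 (SD, n = 3), followed by BCL2L1 at 2089 ± 68.6. BCL2 was the least abundant at 1.59 ± 0.41, below BCL2A1 at 10.3 ± 3.24. The order from MCL1 down in V-K562 was BCL2L1, BBC3, BAX, BID, PMAIP1, BAK1, BCL2L11, BCL2A1 and BCL2. The libraries of BBC3 and BAX overlapped, as did those of BID and PMAIP1, so these neighbours were not separated. In B-K562, BAX followed BCL2L1 at 1234 ± 62.1, and BBC3 at 349.9 ± 22.8 stood below BID and BAK1. In G-K562, BCL2L1 was followed by BAX at 1444 ± 44.1, BBC3 at 1077 ± 66.1 and PMAIP1 at 749.8 ± 68.6. Within B-K562 and within G-K562 no neighbours in the order overlapped. MCL1 and BCL2L1 led the order, and BCL2A1 and BCL2 closed it, in all 3 lines.

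BCL2 (Entrez 596) lies on the minus strand at chr18:63123346-63319778 in GRCh38 and encodes the protein after which the family is named. Its normalised read counts were 16, 11 and 10 in V-K562, 12, 21 and 13 in B-K562 and 64, 67 and 77 in G-K562. The V-K562 and B-K562 libraries overlapped, while every G-K562 library lay above all others. The log2 fold change was 2.42 (SE 0.23, adjusted p = 2.69e-06) in G-K562 against V-K562 and 2.12 (SE 0.26) in G-K562 against B-K562. In B-K562 against V-K562 it was 0.28, with a 95% confidence interval from -0.42 to 0.97, which does not exclude a change of nearly 2-fold. Under quantile normalization that value was 0.94 with an adjusted p of 0.023.

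BCL2L1 (Entrez 598, chr20:31664452-31723964, minus strand) encodes BCL-xL and, by splicing, the pro-apoptotic BCL-xS, which gene-level values do not separate. Its counts were 6100, 6397 and 5980 in V-K562, 6342, 6263 and 6325 in B-K562 and 9622, 8806 and 9140 in G-K562. The first 2 lines overlapped and G-K562 lay above both. BCL2L1 rose by 1.47-fold in G-K562 against V-K562 (log2 0.55, SE 0.06, adjusted p = 4.85e-06). In B-K562 the difference was 0.04, with an interval from -0.06 to 0.13, and under quantile normalization it was -0.12 with an adjusted p of 0.0129.

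MCL1 (Entrez 4170, chr1:150574551-150579738, minus strand) encodes a short-lived anti-apoptotic protein, and its values likewise pool its splice forms. Counts were 15013, 14272 and 12337 in V-K562, 11960, 12101 and 12159 in B-K562 and 19101, 21550 and 16568 in G-K562. The 3 lines did not overlap, although the lowest V-K562 library lay close to the B-K562 libraries. MCL1 fell by 0.20 on the log2 scale in B-K562 (SE 0.06, adjusted p = 0.0119) and rose by 0.43 in G-K562 (SE 0.10, adjusted p = 0.00191). Without V-K562 replicate 2 the fall in B-K562 was no longer called (adjusted p = 0.063).

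BCL2A1 (Entrez 597, chr15:79960890-79971301, minus strand), an anti-apoptotic gene best known as a target of NF-kappaB in blood cells, had few reads. Counts were 7, 13 and 9 in V-K562, 3, 4 and 3 in B-K562 and 19, 24 and 29 in G-K562. The 3 lines did not overlap. BCL2A1 did not reach the minimum of 10 in 3 libraries for B-K562 against V-K562. It passed that minimum in the other comparisons through the G-K562 libraries, in which it is high, so its values are given with no minimum. Its log2 difference was then -1.27 in B-K562 (SE 0.34, adjusted p = 0.0119) and 1.25 in G-K562 (SE 0.30, adjusted p = 0.00939) against V-K562.

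The effectors carry out membrane permeabilization, and their transcripts parted in G-K562. BAX (Entrez 581, chr19:48954860-48961798, plus strand) had counts of 1124, 955 and 918 in V-K562, 1596, 1656 and 1498 in B-K562 and 1937, 1823 and 1894 in G-K562. Every B-K562 library lay above V-K562 and every G-K562 library above both. BAX rose 1.59-fold in B-K562 (log2 0.67, SE 0.07, adjusted p = 1.85e-06) and 1.86-fold in G-K562 (log2 0.90, SE 0.08, adjusted p = 1.52e-06). The difference of 0.23 between G-K562 and B-K562 was called at an adjusted p of 0.0095, and not without B-K562 replicate 3 (adjusted p = 0.0512).

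The RefSeq window of the BAX promoter, from 250 bases before to 50 bases after the start, is shown because BAX rose in both BASP1 lines and because of its repeated motif. It covers chr19:48954625-48954924 of GRCh38.p14 on the plus strand. Capitals mark matches on either strand to the E-box CACGTG, which basic helix-loop-helix factors such as MYC bind, and to the GC box GGGCGG, which SP1 binds.
BAX promoter: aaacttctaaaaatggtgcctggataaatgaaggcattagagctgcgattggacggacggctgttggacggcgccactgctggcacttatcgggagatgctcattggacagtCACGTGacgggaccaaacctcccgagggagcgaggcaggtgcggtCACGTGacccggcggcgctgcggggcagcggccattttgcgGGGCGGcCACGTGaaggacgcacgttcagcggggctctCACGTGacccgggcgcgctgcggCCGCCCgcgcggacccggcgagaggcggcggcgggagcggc
The window holds 4 matches to the E-box and 2 to the GC box. Of all 35116 RefSeq promoter windows, 7.26 percent hold this E-box and 45 percent the GC box. A match in the letters does not show that a factor binds there.

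BAK1 (Entrez 578, chr6:33572546-33580299, minus strand) encodes the second effector. Its counts were 845, 878 and 934 in V-K562, 1099, 1158 and 1117 in B-K562 and 791, 632 and 722 in G-K562. The 3 lines were separate, with B-K562 highest and G-K562 lowest. BAK1 rose by 0.35 on the log2 scale in B-K562 (SE 0.06, adjusted p = 0.00011) and fell by 0.34 in G-K562 (SE 0.09, adjusted p = 0.00546), so that the 2 BASP1 lines differed 1.6-fold (adjusted p = 1.41e-06). RefSeq lists 2 pseudogenes of BAK1 that have no row in the tables, so their RNA could not be read here. The authors kept only uniquely mapping reads, and whether any pseudogene reads count toward BAK1 was not tested.

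The balance between BAX and BCL2 was expressed as the ratio of their values per length in each library. It was 424.3, 524.2 and 556.4 in V-K562, 790.7, 468.8 and 685 in B-K562 and 179.9, 161.8 and 146.2 in G-K562. The V-K562 and B-K562 libraries overlapped (two-sided exact permutation test, p = 0.3). The G-K562 ratios lay below all others, with a mean of 162.6 ± 16.9 against 501.7 ± 68.9 in V-K562, and the two-sided exact permutation p of 0.1 is the smallest that 3 against 3 libraries can give. The denominator rests on counts of 10 to 77.

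**Figure D2:**
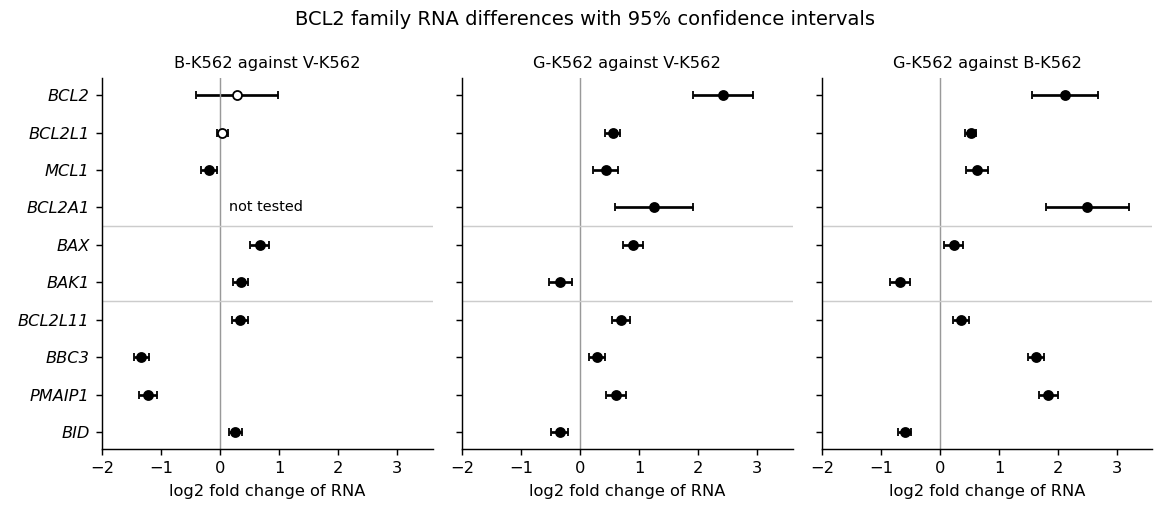
Log2 fold change of RNA (points) with 95% confidence intervals (bars) for the 10 genes in 3 comparisons, filled where the adjusted p is at most 0.05. BBC3 and PMAIP1 lie below -1 in B-K562 against V-K562, and all genes but BAK1 and BID lie above 0 in G-K562 against V-K562.

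Among the 4 BH3-only genes, BBC3 and PMAIP1 fell in B-K562 while BCL2L11 and BID rose. BBC3 (Entrez 27113, chr19:47220822-47232996, minus strand) encodes PUMA, which binds all anti-apoptotic members. Its counts were 2271, 2066 and 2175 in V-K562, 915, 862 and 803 in B-K562 and 2883, 2595 and 2599 in G-K562. B-K562 lay far below the other lines, and G-K562 above V-K562. BBC3 fell 2.52-fold in B-K562 (log2 -1.34, SE 0.06, adjusted p = 3.73e-10) and rose 1.22-fold in G-K562 (log2 0.29, SE 0.06, adjusted p = 0.00214).

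PMAIP1 (Entrez 5366, chr18:59899960-59904306, plus strand) encodes NOXA, which binds MCL1 and BCL2A1 preferentially. Its counts were 1008, 915 and 882 in V-K562, 401, 384 and 412 in B-K562 and 1333, 1595 and 1427 in G-K562. The 3 lines were again separate in the same order as for BBC3. PMAIP1 fell 2.34-fold in B-K562 (log2 -1.22, SE 0.07, adjusted p = 2.71e-09) and rose 1.52-fold in G-K562 (log2 0.61, SE 0.08, adjusted p = 4.28e-05). Between G-K562 and B-K562, 8 of 10 members were higher and 2 lower, beside 38.1 percent and 40.5 percent of 15521 genes, 78.5 percent in all. BCL2A1 is among the 8, and with a minimum of 10 in every library 7 were higher. At least 2-fold higher were 4 members, BCL2A1, BCL2, BBC3 (log2 1.62, SE 0.06) and PMAIP1 (log2 1.83, SE 0.07), beside 17.4 percent of genes, and 29.9 percent of genes differed that far in either direction.

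The RefSeq promoter windows of PMAIP1 (chr18:59899746-59900045, plus strand) and BBC3 (chr19:47232618-47232917, minus strand), both from GRCh38.p14, are shown because these 2 genes fell together. Capitals mark matches on either strand to GGGCGG, to CACGTG, to TGACGT, the core of the cyclic AMP response element, and to TGANTCA, the AP-1 site, where N is any base.
PMAIP1 promoter: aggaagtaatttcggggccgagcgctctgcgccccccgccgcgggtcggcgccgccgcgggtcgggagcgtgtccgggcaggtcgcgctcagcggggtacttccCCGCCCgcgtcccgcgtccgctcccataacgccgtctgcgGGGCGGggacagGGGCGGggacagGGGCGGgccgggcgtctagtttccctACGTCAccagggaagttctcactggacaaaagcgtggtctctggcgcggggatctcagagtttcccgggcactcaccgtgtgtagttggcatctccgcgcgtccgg
BBC3 promoter: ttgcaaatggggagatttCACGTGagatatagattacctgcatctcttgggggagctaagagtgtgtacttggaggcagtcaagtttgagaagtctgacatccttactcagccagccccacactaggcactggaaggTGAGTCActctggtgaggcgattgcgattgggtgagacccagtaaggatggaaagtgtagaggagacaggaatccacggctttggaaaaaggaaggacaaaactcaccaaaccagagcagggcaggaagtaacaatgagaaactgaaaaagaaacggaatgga
The PMAIP1 window holds 4 matches to the GC box and 1 to the cyclic AMP core. The BBC3 window holds 1 match to the E-box and 1 to the AP-1 site. Neither window matched the composite site of ATF and C/EBP factors (TGATGNAA), an EGR-type site (GCGTGGG) or a GATA site (AGATAA). None of the 7 motifs searched occurred in both windows. The PMAIP1 window lies under an ATAC-seq peak called in every library, while no called peak overlaps the BBC3 window. The comparison does not cover the BBC3 intron regions that had called peaks. The cyclic AMP core occurs in 7.98 percent of all promoter windows and the AP-1 site in 7.71 percent, and the GC content was 71.3 percent for PMAIP1 and 48 percent for BBC3.

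BCL2L11 (Entrez 10018, chr2:111120618-111168445, plus strand) encodes BIM, which activates effectors and binds all anti-apoptotic members. Its counts were 1197, 1371 and 1272 in V-K562, 1587, 1701 and 1568 in B-K562 and 2160, 1958 and 2184 in G-K562. V-K562 was lowest and G-K562 highest, without overlap. BCL2L11 rose by 0.34 on the log2 scale in B-K562 (SE 0.06, adjusted p = 0.000178) and by 0.69 in G-K562 (SE 0.07, adjusted p = 5.4e-06).

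BID (Entrez 637, chr22:17734140-17774665, minus strand) links death receptors to mitochondria after caspase-8 cleaves it. Its counts were 1406, 1410 and 1364 in V-K562, 1721, 1664 and 1610 in B-K562 and 1145, 1147 and 1053 in G-K562. As for BAK1, B-K562 was highest and G-K562 lowest. BID rose by 0.26 on the log2 scale in B-K562 (SE 0.05, adjusted p = 0.000408) and fell by 0.35 in G-K562 (SE 0.06, adjusted p = 0.000472).

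Open chromatin was compared by the summit pileup, the number of tags stacked at the highest point of a called peak. Libraries were scaled by a trimmed mean, and a library with no called peak in a region was set to 17, the 5th percentile of all summits. A region was called opened or closed at an adjusted p of at most 0.05 with at least a 2-fold difference. Of the 27 member regions that could be tested between B-K562 and V-K562, none was opened and 2 were closed, where 1.53 percent and 6.16 percent of all 52204 regions were called, 7.68 percent in all. By the adjusted p alone, 1 was higher and 4 were lower, where 8.57 percent and 16.6 percent of all regions were, 25.2 percent in all. Between G-K562 and V-K562, 1 of 28 was opened and 2 were closed, beside 2.86 percent and 13.1 percent of 54213 regions. By the adjusted p alone, 7 were higher and 3 lower, where 15.9 percent and 26 percent of all regions were, 41.9 percent in all. The region higher in B-K562, which is also among the 7 higher in G-K562, lies 10420 bases from the BAX start and holds the start of FTL, a ferritin gene. Between G-K562 and B-K562, 4 of 30 were opened and 1 was closed, beside 4.28 percent and 8.6 percent of 60181 regions. The region opened in G-K562 against V-K562 is among these 4 and had called peaks in G-K562 alone. A BCL2L1 region closed in both BASP1 lines had them in V-K562 alone. A test needed peaks in at least 3 libraries, so the direction of both was fixed in advance.

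Called peaks covered the transcription start of 7 members, and none of these 7 start regions was opened or closed in any comparison. At the PMAIP1 start the summit pileups were 53, 65 and 53 in V-K562, 58, 60 and 52 in B-K562 and 81, 81 and 93 in G-K562. V-K562 and B-K562 overlapped there, with a log2 difference of -0.15 after scaling and an interval from -0.51 to 0.20, beside an RNA log2 change of -1.22. Before scaling, every G-K562 library lay above the others. The scaled differences were 0.23 (adjusted p = 0.22) from V-K562 and 0.36 (adjusted p = 0.0589) from B-K562. Neither was called, but both were without scaling (0.57 and 0.58) and by mean pileup (0.34 and 0.39), and the second also without V-K562 replicate 2 (adjusted p = 0.0395). At BBC3 no peak was called over the start in any library. The nearest region, in the intron 1636 bases from the start, was called in 2 G-K562 libraries only, at 105 and 98, too few for a test. The 3 BBC3 intron regions tested in B-K562 against V-K562 differed by -0.04, -0.08 and 0.08. The widest of their intervals reached from -0.42 to 0.27. The intron region 5796 bases from the BBC3 start had pileups of 71, 94 and 96 in V-K562, 81, 94 and 98 in B-K562 and 179, 161 and 177 in G-K562. It was higher in G-K562 than in V-K562 by 0.64 (adjusted p = 0.00596) and lies over MIR3190.

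At the BAX start the pileups were 112, 98 and 93 in V-K562, 153, 140 and 129 in B-K562 and 162, 137 and 165 in G-K562. Both BASP1 lines lay above V-K562 before scaling, but the scaled differences of 0.32 (adjusted p = 0.0711) and 0.26 (adjusted p = 0.109) were not called. Without scaling they were 0.47 and 0.61 and were called. At the BAK1 start the pileups were 154, 147 and 155 in V-K562, 229, 186 and 178 in B-K562 and 232, 192 and 265 in G-K562, and the scaled differences were 0.22 and 0.23, neither called. BAK1 RNA moved in opposite directions in the 2 BASP1 lines. At the BCL2L1 start the difference was 0.23 in B-K562 and -0.12 in G-K562, at MCL1 0.16 and 0.14, at BCL2L11 0.37 and 0.44, and at BID 0.90 and 0.46, none of them called. The BID values compare with V-K562 libraries of which 1 alone had a called peak. Without scaling, BAK1 (0.37 and 0.58) and BCL2L11 (0.52 and 0.79) were called higher in both BASP1 lines, BCL2L1 in B-K562 (0.38) and MCL1 in G-K562 (0.49). The BCL2L11 start, which also overlaps ACOXL, was called in both lines by mean pileup (0.37 and 0.46). It was called too among regions with a peak in every library (adjusted p = 0.0422 in B-K562 and 0.01035 in G-K562).

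These start regions lie close to the threshold, and single libraries moved some of them. Without V-K562 replicate 1 the BAX start was higher in B-K562 (0.41, adjusted p = 0.0374) and in G-K562 (0.35, adjusted p = 0.044). Without V-K562 replicate 3, the BCL2L11 start reached 0.52 and 0.59 in the 2 BASP1 lines, both called. The BID start then reached 1.29 and 0.87, but replicate 3 held its only V-K562 peak. Measured peaks were there set against the floor alone, so the BID calls carry no weight. The BCL2L1 start was lower in G-K562 than in B-K562 (log2 -0.37, adjusted p = 0.0363). That call was lost without scaling (-0.16) and without any 1 of V-K562 replicates 1 to 3, B-K562 replicates 2 and 3 or G-K562 replicates 1 and 3.

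**Figure D3:**
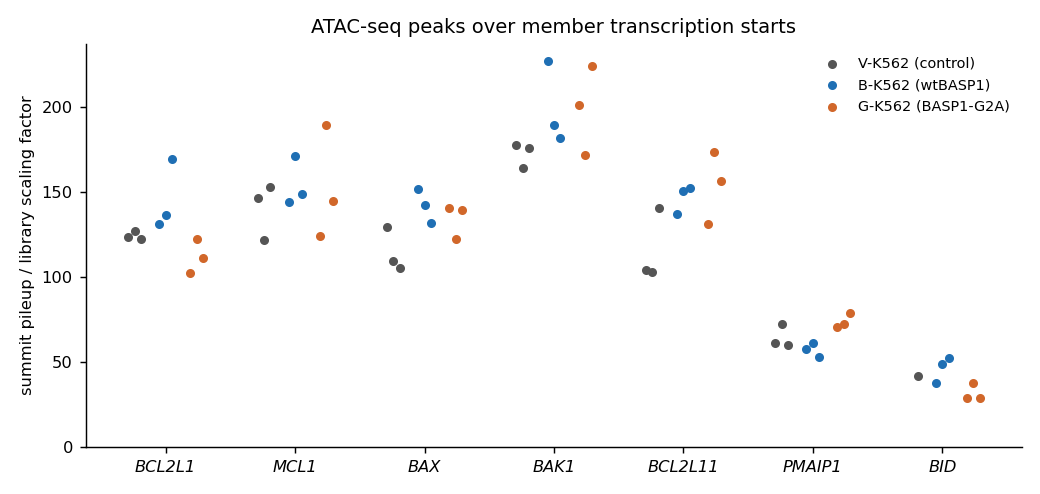
Scaled summit pileup at the transcription start of the 7 members with a called peak there, 3 points per line. The lines lie close together at most starts, and BID has a called peak in 1 V-K562 library.

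BCL2, BCL2A1 and BBC3 had no peak over the start. The nearest BCL2 region lay upstream, at -542 bases from the start, where pileups were 15 and 16 in V-K562 replicates 2 and 3, 23 and 20 in B-K562 replicates 2 and 3 and 26, 27 and 30 in G-K562. It was higher in G-K562 than in V-K562 by 0.47 (adjusted p = 0.0106), near the floor of detection in all lines. At BCL2A1 an exon region 197 bases from the start was called in 2 G-K562 libraries only, at 23 and 16, too few for a test.

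Within BCL2, an intron region at chr18:63161746-63162133 separated the 2 BASP1 lines. Its pileups were 31, 23 and 34 in V-K562, 17, 14 and no peak in B-K562 and 48, 40 and 55 in G-K562. Before scaling, B-K562 lay lowest and G-K562 highest among the called peaks. The B-K562 peaks lay at or below the floor of 17, and the library with no peak was set to it. The differences that involve B-K562 therefore depend on that floor. The region was opened in G-K562 against B-K562 (log2 1.23, SE 0.20, adjusted p = 0.00131) and lower in B-K562 against V-K562 (log2 -0.81, adjusted p = 0.0147). Against V-K562 the difference in G-K562 was 0.35 and was not called.

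In BCL2L1, an intron region at chr20:31706626-31707138, 17148 bases from the start, was closed in G-K562 against both other lines. Its pileups were 95, 102 and 86 in V-K562, 114, 92 and 109 in B-K562 and 79, 44 and 50 in G-K562, with a peak called in every library. The 3 G-K562 libraries lay below all others, while V-K562 and B-K562 overlapped. The log2 difference was -1.09 (SE 0.21, adjusted p = 0.00567) against V-K562 and -1.11 (SE 0.20, adjusted p = 0.00233) against B-K562. The difference was under 2-fold, though still called lower by the adjusted p, without scaling (-0.74 and -0.89), within GC bins (-0.64 and -0.91), by mean pileup (-0.94 in both) and without G-K562 replicate 2 (-0.94 and -0.96). Without G-K562 replicate 3 it was -0.99 against V-K562.

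Other BCL2L1 regions with a peak in every library differed by less than 2-fold and in both directions. The intron region 1052 bases from the start had pileups of 53, 58 and 61 in V-K562, 72, 97 and 84 in B-K562 and 120, 100 and 107 in G-K562. Before scaling, G-K562 lay highest there. After scaling, G-K562 was higher than V-K562 by 0.57 (adjusted p = 0.00808), and its difference of 0.16 from B-K562 was not called. The intron region at 47964 bases was lower in G-K562, by -0.34 (adjusted p = 0.0304) against V-K562 and -0.48 (adjusted p = 0.00208) against B-K562. This region and that at 17148 bases also lie within BCL2L1-AS1, as do those at 15452 and 24604 bases described below. RefSeq places that long non-coding RNA at chr20:31675108-31716844. It has no RNA-seq values here, and whether its reads count toward BCL2L1 was not tested. The downstream region at 62172 bases was lower in B-K562 than in V-K562 (log2 -0.63, adjusted p = 0.0114). BCL2L1 RNA was higher in G-K562 than in both other lines.

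The central 300 bases of the region at 17148 bases, chr20:31706733-31707032 of GRCh38 on the plus strand, are shown because this member region was closed with peaks in all libraries. Capitals mark its single motif match, AGATAA, the site of GATA factors, read on the other strand as TTATCT.
BCL2L1 intron region: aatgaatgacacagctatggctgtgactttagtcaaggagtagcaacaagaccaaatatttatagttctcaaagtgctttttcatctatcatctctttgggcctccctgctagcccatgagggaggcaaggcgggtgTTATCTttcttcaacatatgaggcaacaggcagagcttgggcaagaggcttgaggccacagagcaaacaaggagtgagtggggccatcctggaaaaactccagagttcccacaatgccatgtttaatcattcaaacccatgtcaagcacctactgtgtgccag
AGATAA occurs in 23.1 percent of the central 300 bases of all 85549 regions. None of the other 6 motifs occurred in this stretch.

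Further opened or closed regions of BCL2L1 and BAX rested on libraries with no called peak. The BCL2L1 intron region 15452 bases from the start had pileups of 41, 50 and 37 in V-K562 and no peak in either BASP1 line. It had the 3 peaks needed for a test through V-K562 alone, and every value in the BASP1 lines was the floor. The test could therefore only give a fall, and its p-values carry no weight. The log2 differences were -1.34 in B-K562 and -1.44 in G-K562, both counted as closed. With missing peaks set to the lowest summit of the gene's own regions, a choice made after seeing the data, the differences were -0.66 (adjusted p = 0.0435) and -0.28 (adjusted p = 0.236). The BCL2L1 region 24604 bases from the start had pileups of 48, 47 and 40 in V-K562, 33 in 1 B-K562 library and 67, 43 and 52 in G-K562. It was closed in B-K562 (log2 -1.14, adjusted p = 0.02), but not without V-K562 replicate 1, 2 or 3, nor without B-K562 replicate 1 or 2, where the values ran from -1.22 to -0.99. It was opened in G-K562 against B-K562 (log2 1.08, adjusted p = 0.0182), and with the gene's own floor the difference was 0.56 (adjusted p = 0.0548). That call was also lost without B-K562 replicate 1 or 2 and without G-K562 replicate 1 or 3, with values from 0.91 to 1.11.

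Downstream of BAX, a region at chr19:48963867-48964141 had called peaks in the 3 G-K562 libraries alone, at 132, 110 and 119. It had the 3 peaks needed for a test through G-K562 alone, and every V-K562 value was the common floor. The direction was therefore fixed in advance, and its p-value carries no weight. With that floor the log2 difference from V-K562 was 2.57, and the region was counted as opened. With the floor taken from the gene's own regions the difference was 0.09 (adjusted p = 0.524). A second downstream region, 7604 bases from the start, had pileups of 87, 102 and 124 in V-K562, 80 and 86 in 2 B-K562 libraries and 173, 187 and 194 in G-K562. G-K562 lay above all others there. Its log2 difference from B-K562 was 1.68 (adjusted p = 0.0323), and 0.96 (adjusted p = 0.000369) with the gene's own floor. It was not called without any 1 of the V-K562 or G-K562 libraries, with values from 1.65 to 1.73.

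**Figure D4:**
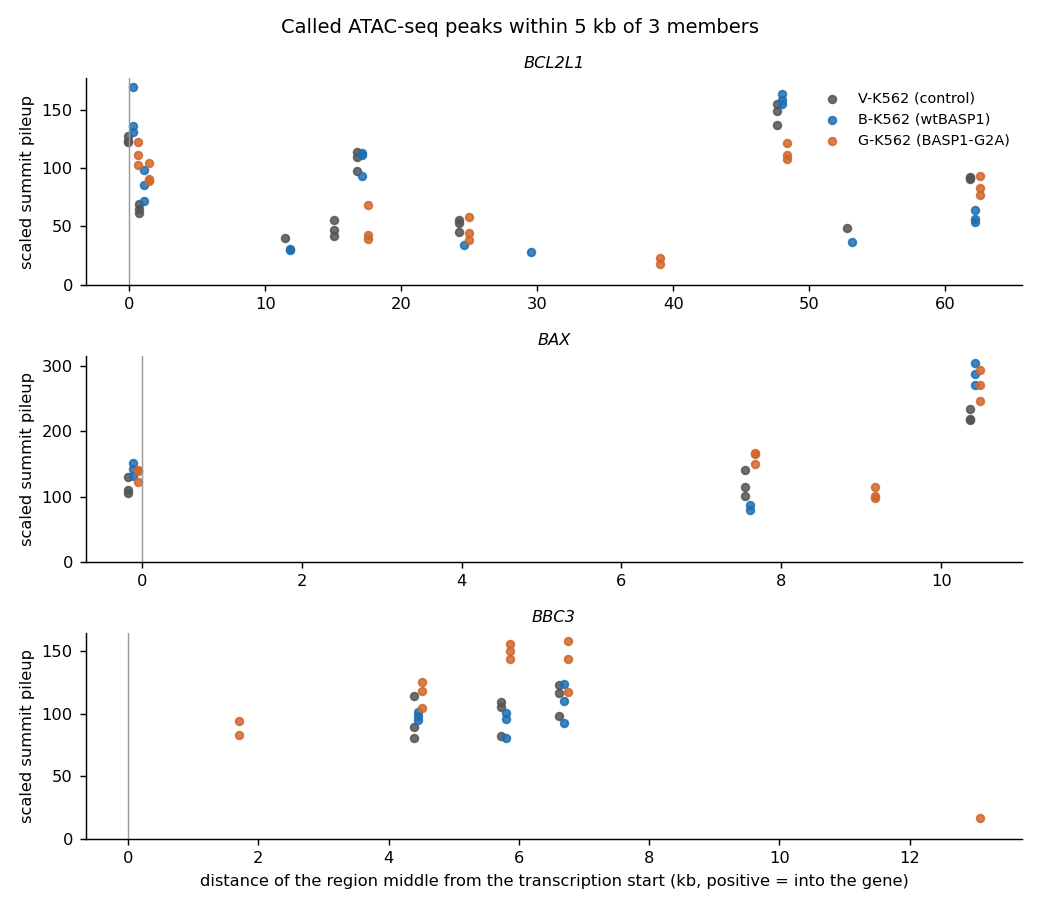
Called peaks near BCL2L1, BAX and BBC3, as summit pileup against distance from the transcription start in kb, with the lines offset sideways. A missing point is a library with no called peak, and the BCL2L1 region at 17148 bases is lowest in G-K562.

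Other genes of the apoptosis pathway were described from fixed lists. Over all genes, as above, 38.6 percent rose and 37.2 percent fell in B-K562, and 33.5 percent rose and 33.3 percent fell in G-K562, and none of the list counts below was tested against these shares. Of 10 other BCL2 relatives tested, 8 fell and 2 rose in B-K562, with a median log2 change of -0.67 against 0.01 over all genes. BOK, an effector-like relative, fell 3-fold (log2 -1.59, SE 0.13), and the mitophagy receptor BNIP3L fell 2.59-fold (log2 -1.37, SE 0.06). BIK, a BH3-only gene, also fell (log2 -1.55, SE 0.56), from low counts. In G-K562, 4 of 9 relatives fell and none rose, and BNIP3, a mitophagy receptor of low-oxygen responses, fell 4.47-fold (log2 -2.16, SE 0.07).

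Downstream of the mitochondrion, 11 of 15 caspase and apoptosome genes rose and 4 fell in B-K562, where 38.6 percent and 37.2 percent of all genes did. APAF1, the scaffold of the apoptosome, fell 2.05-fold (log2 -1.03, SE 0.07). In G-K562, 4 rose and 5 fell, and DFFB, the nuclease that cuts DNA in dying cells, fell 2.3-fold (log2 -1.20, SE 0.09). Among 7 inhibitors of apoptosis, 3 rose and 3 fell in B-K562, BIRC7 by -2.47 (SE 0.32) and BIRC3 by -1.75 (SE 0.18). In G-K562, 2 rose and 1 fell, all by less than 2-fold.

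Of 9 death receptor pathway genes tested, 3 rose and 6 fell in B-K562, beside 38.6 percent and 37.2 percent of all genes. In G-K562, 6 rose and 2 fell, beside 33.5 percent and 33.3 percent. FAS, the receptor of FAS ligand, had counts of 80, 65 and 88 in V-K562 and 7, 4 and 2 in B-K562, a log2 change of -3.98 (SE 0.34). TNFRSF10B, the TRAIL receptor DR5, fell by 2.11 (SE 0.05). In G-K562, the adaptor TRADD rose by 1.40 (SE 0.09), the TNF receptor TNFRSF1A by 1.22 (SE 0.07) and the kinase RIPK1 by 1.08 (SE 0.07). TNFSF10, the ligand TRAIL, fell in both lines, with log2 changes of -1.80 (SE 0.26) in B-K562 and -2.02 (SE 0.22) in G-K562.

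Of 12 transcription regulators of the family, 6 rose and 5 fell in B-K562, and 6 rose and 2 fell in G-K562, where 75.8 percent and 66.9 percent of all genes were called. In B-K562, TP73, a transcription factor that can induce apoptosis, fell by 1.94 (SE 0.12), the stress factor DDIT3 fell by 1.11 (SE 0.05) and NFKB1 rose by 1.22 (SE 0.08). In G-K562, TP73 rose by 1.09 (SE 0.10) and WT1, the partner of BASP1, rose by 1.38 (SE 0.07). Of 4 tested enzymes that control MCL1 turnover, 2 rose (HUWE1 and BTRC) and 1 fell (FBXW7) in B-K562. In G-K562, 4 of 4 fell with a median of -0.34, USP9X by -0.46. The counts give no direction for MCL1 turnover, which was not measured.

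**Figure D5:**
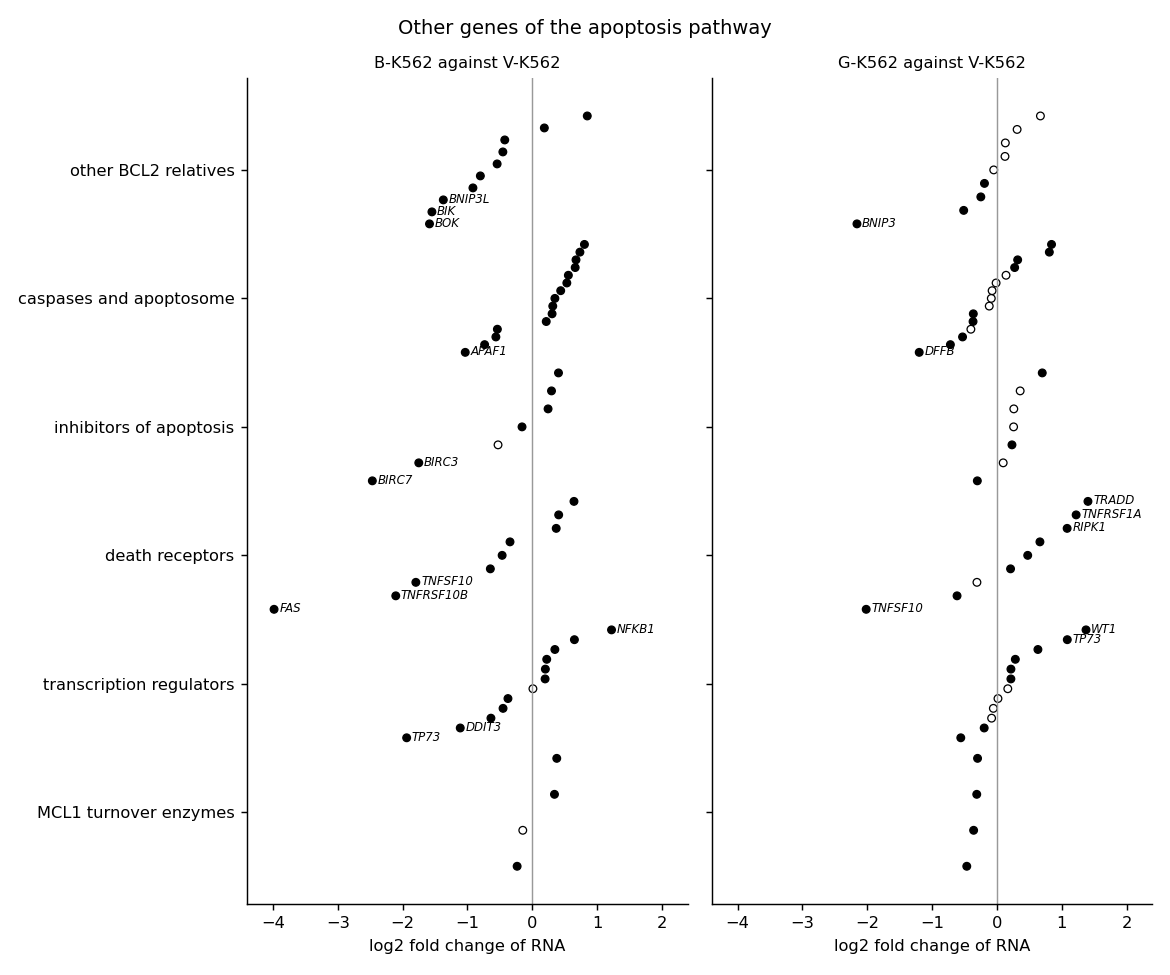
Log2 fold change of the genes of 6 other lists in B-K562 and in G-K562 against V-K562, filled where the adjusted p is at most 0.05 and labelled where the change is also at least 2-fold. FAS has the lowest value among these genes in B-K562, at -3.98.

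Over the 9 RNA-seq libraries, each member was compared with the 66 members and list genes for the most similar pattern. Pearson's r was highest with WT1 for BCL2 (0.979) and BCL2L1 (0.987), with TNFRSF10B for BBC3 (0.989) and with DDIT3 for PMAIP1 (0.985). BAK1 was closest to HUWE1 (0.983), BID to DFFB (0.989), BCL2L11 to RIPK1 (0.977), BCL2A1 to TP73 (0.956), BAX to AIFM1 (0.953) and MCL1 to TNFRSF1A (0.931). The libraries fall into 3 lines, so these values describe differences between lines.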

How the data were processed

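RNA-seq and ATAC-seq were made from V-K562, B-K562 and G-K562, 3 libraries each. The RNA-seq values deposited by the authors are a score: read counts (STAR, GRCh38, Subread) divided by DESeq2 size factors and rounded, so no count model was used. The counting strand is not given in the sources used here, and 330 rows had no symbol. The ATAC-seq signal deposited by the authors is the summit pileup of MACS2 peaks, called per library after sampling to equal tags. The authors' own fold changes and p-values were not used.

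RNA was tested with limma 3.58.1 (R 4.3.3) with a trended prior on log2(value + 1), for genes with at least 10 in at least 3 libraries, with Benjamini-Hochberg adjustment over all genes. Fold changes are on that scale. G-K562 against B-K562 used all 9 libraries. ATAC-seq regions with peaks in at least 3 libraries were tested in the same way. The fits were tested on simulated data. Promoter windows are from RefSeq, with 9 of 10 members matched. Members, lists and motifs were chosen with earlier results of these data known. Within each list and comparison, at most the 4 genes with the largest changes of at least 2-fold are named.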

Additional observations from a re-analysis of the deposited data

Results flagged for a closer look

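For 5 members the B-K562 and G-K562 lines moved in opposite directions from V-K562, each past the threshold, and the lines differed from each other in limma. Over all genes, 75.8 percent were called in B-K562 and 66.9 percent in G-K562 against V-K562, and 78.5 percent between the 2 lines. The share of all genes with opposite calls, or with libraries apart, was not counted, so whether 5 members are many cannot be said. BCL2A1 is not among the 5, because it missed the minimum for B-K562 against V-K562. With no minimum it too was called in opposite directions, at -1.27 in B-K562 and 1.25 in G-K562. After opposite calls against the same V-K562 libraries, the call between the lines adds little. The log2 difference of G-K562 and B-K562 was 1.83 for PMAIP1, 1.62 for BBC3 and 0.63 for MCL1, which were higher in G-K562. It was -0.68 for BAK1 and -0.60 for BID, which were lower in G-K562. In all 5 the 3 libraries of each line lay apart from those of the other. The fall of MCL1 in B-K562 was not called without V-K562 replicate 2 (adjusted p = 0.063).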

How the results depend on the processing

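For RNA, 218 of the values recomputed with all libraries kept their direction and their side of the threshold. The exceptions were in B-K562 against V-K562 under quantile normalization, where BCL2L1 was -0.12 and BCL2 0.94; the cause was not tested. Asking for a 2-fold change left 0 members higher in B-K562, 2 higher and 0 lower in G-K562, and 4 higher and 0 lower in G-K562 against B-K562. Leaving out 1 library gave 2 to 3 members lower in B-K562 and 7 to 8 higher in G-K562 against B-K562.

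The replicate number was not taken to pair the libraries. Deviations of same-numbered libraries correlated at -0.08 to 0.136 for RNA, against -0.16 to 0.208 for different numbers. For ATAC-seq they correlated at 0.007 to 0.121, against -0.083 to 0.047, all positive but mostly under the 0.1 asked for, and not every library correlated best with its own number. With the replicate number as a block, 4 members were higher and 3 lower in B-K562, as without it. The BID start in B-K562 (0.90, adjusted p = 0.0468) and the BCL2L11 start in G-K562 (0.44, adjusted p = 0.0396) were called with the block, though not by the unblocked fit.

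Counts of regions moved with most settings. In B-K562 against V-K562, closed regions numbered 0 with a peak required in every library, 1 by mean pileup, 0 with the gene's own floor and 4 by the adjusted p alone, and 1 was opened by the adjusted p alone. Without 1 library, 0 to 1 were opened and 1 to 2 closed. In G-K562 against V-K562, opened regions numbered 2 without scaling, 0 with a peak in every library, 0 with the own floor, 7 by the adjusted p alone and 2 within 10 kb. Closed regions there numbered 1 without scaling, with GC bins, with a peak in every library, by mean pileup and with the own floor, and 1 to 2 without 1 library. In G-K562 against B-K562, opened regions numbered 0 with a peak in every library, 1 by mean pileup and 1 with the own floor, and closed regions 0 without scaling, with GC bins or by mean pileup, 3 by the adjusted p alone and 2 within 10 kb. Without 1 library, 2 to 3 were opened and 0 to 2 closed.

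Without scaling the median of all regions was 0.06 in B-K562 and 0.19 in G-K562 against V-K562, in place of -0.06 and -0.10, and 8254 regions were higher and 6627 lower in B-K562 in place of 4474 and 8662. In G-K562, 16887 were higher and 9855 lower in place of 8632 and 14102. Against B-K562 it was 13662 and 8000 in place of 7395 and 9373, with a median of 0.12. Without scaling, start regions turned to 0.23 for BCL2L1 in G-K562 against V-K562, and to 0.18 for MCL1, 0.13 for BAX and 0.21 for BAK1 in G-K562 against B-K562. Scaling within 20 GC bins turned MCL1 to -0.0094 in B-K562, MCL1 to -0.11 and PMAIP1 to -0.075 in G-K562, and BCL2L11 to -0.031 in G-K562 against B-K562. Mean pileup turned MCL1 to 0.13 and BAK1 to 0.013 in G-K562 against B-K562, and the own floor turned BID to -0.031 in G-K562 against V-K562. Without 1 library, the MCL1 start ran from -0.031 to 0.28 in G-K562 against V-K562. Against B-K562, MCL1 ran from -0.20 to 0.10, BAK1 from -0.094 to 0.10 and BCL2L11 from -0.031 to 0.17. BCL2 and BCL2A1 rest on few reads, and a library without a called peak has no measured pileup.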

Other observations

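Between the 2 BASP1 lines, 6 of 9 death receptor genes were higher in G-K562 and 1 was lower, with a median log2 difference of 1.13 against -0.02 over all genes. Over all genes, 38.1 percent were higher and 40.5 percent lower. FAS differed by 3.68 (SE 0.30), TNFRSF10B by 2.32 (SE 0.05), TNFRSF1A by 1.87 (SE 0.06) and TRADD by 1.75 (SE 0.08). The inhibitor genes BIRC7 (2.57, SE 0.27) and BIRC3 (2.01, SE 0.16) were also higher in G-K562, as were the regulators TP73 (3.02, SE 0.11), DDIT3 (1.40, SE 0.06) and WT1 (1.17, SE 0.06). Among the other BCL2 relatives, BOK (1.54, SE 0.12), BMF (1.23, SE 0.14) and BNIP3L (1.18, SE 0.06) were higher and BNIP3 (-1.36, SE 0.06) was lower. DFFB was 4.01-fold lower in G-K562, and its inhibitor DFFA (-1.04, SE 0.05), the nuclease ENDOG (-1.06, SE 0.07) and CYCS (-1.14, SE 0.16), which encodes cytochrome c, were lower too.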
